A study of Mus musculus with 6 samples.

Results

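The genes described here encode 40 RNA-binding proteins that have been found in, or linked to, the granules in which neurons carry mRNA. They were listed by name from what the proteins are known to do and not by a threshold on a measured value, although earlier results of these data were known when the list was made. All 40 were among the 24411 genes of the deposited tables, where they had 129 of the 35034 transcripts. RNA was measured by sequencing in mouse corpus callosum on postnatal day 4, a tract that holds the axons of cortical projection neurons on their way to the other hemisphere. The labels give a B6 mouse background and 2 genotypes, WT and Mettl14 cKO, with 3 libraries each (WT replicates 1 to 3 and cKO replicates 1 to 3). Mettl14 is a subunit of the complex that writes N6-methyladenosine (m6A) on mRNA, and neither the Cre driver nor the cells that lost the gene were stated in the sources used here.

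A transport granule is a particle of mRNA, ribosomes and proteins that motor proteins move along microtubules. Proteins such as Staufen bind structured mRNA and link it to the granule, zipcode binding proteins recognise localisation signals in the 3′ untranslated region, and proteins such as CPEB or Pumilio keep the mRNA silent until it is needed. Many of these proteins also work in the nucleus, where they take part in splicing or accompany the mRNA from there. The libraries measured the mRNA of these proteins, not the proteins, their granules or their binding.

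Depth was low. Total expected counts per library were 670462 to 1268430, and the members took 1.24% to 1.4% of them, with 35 to 38 of the 40 above 0 in a library. Values are given as CPM (scaled counts relative to the library total), where 1 count was worth 0.803 to 1.41 CPM. A count of 0 allows up to 3 counts, or 2.41 to 4.24 CPM depending on the library. These limits cover counting error only. Both replicate 2 libraries had the most counts of their group and shorter fragments (304.3 and 292.7 bases on average) than the others (332.4 to 350.5). Mettl14 was counted 11, 8 and 5 times in WT, against 2, 7 and 2 times in cKO. Permuting the libraries (exact, two-sided) gave p = 0.3 for Mettl14, where the smallest possible p is 0.1, so that a loss of the targeted mRNA was not detectable at this depth. Xist was counted in all 3 cKO libraries and in none of the WT libraries, and Eif2s3y, a Y-linked gene, in all 3 WT libraries and in none of the cKO libraries. The sex-linked transcripts therefore split fully by genotype. For every gene below, a difference by genotype and one by sex cannot be told apart.

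m6A is written mostly within a short consensus whose core is often GGACT, and is found most densely around stop codons. The stop codon surroundings of the members are shown first, because they are where a direct mark on these mRNAs could lie. Transcripts were taken from GENCODE M21 (GRCm38) by their RefSeq accession, and GGACT was searched on the sense strand alone, since the mark is on the mRNA, within 200 bases to either side of the end of the stop codon. Of the 40 members 7 (17.5%) had at least 1 GGACT there, beside 7401 of 20529 genes (36.1%) and 39.6% of the genes tested below. Among the 24 members whose GENCODE transcript was within 10% of the deposited length, 4 (16.7%) had one, beside 36% of all genes with such a match. Over whole transcripts the members had a median of 0.805 GGACT per 1000 bases and all genes 1.04. Rbfox1, Ybx1 and Hnrnpa2b1, all discussed below, had none in the matched transcript, but these had 3061, 1628 and 1662 bases where the deposited ones had 5187, 2191 and 2264, so part of their sequence was not searched. The 7 members were Celf4, not printed here, and the 6 whose 25 bases around the motif nearest to the stop codon follow, 5′ to 3′ on the mRNA strand, with GGACT in capitals:
Atxn2: aggcatgtagGGACTtgtggctgtt
Caprin1: tattgtaaagGGACTgttttcatcc
Elavl4: attcaaccatGGACTttataagccc
Smn1: cgtcatcagtGGACTcttggctaag
Stau2: ccatctctcaGGACTgcaagaaatc
Syncrip: actaatacttGGACTttgttatgaa
The Stau2 motif lay in coding sequence, centred 28 bases before the last base of the stop codon (chr1:16229789-16229813, minus strand). The others lay in the 3′ untranslated region. Their centres were 79 bases past the stop codon in Smn1 (chr13:100137444-100137468, plus strand), 116 in Elavl4 (chr4:110206204-110206228, minus strand) and 118 in Caprin1 (chr2:103766669-103766693, minus strand). They were 167 bases past it in Syncrip (chr9:88454075-88454099, minus strand) and 190 in Atxn2 (chr5:121814544-121814568, plus strand). The Caprin1, Syncrip and Celf4 matches lay in transcripts of 6169, 9450 and 2626 bases, where the deposited ones had 3536, 6933 and 3947. For Cpeb1, Cpeb4 and Rbfox3 only 261, 245 and 236 of the 400 bases around the stop codon were in the transcript. A match is a string of letters and not a measured m6A site, and m6A itself was not measured in these libraries.

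Levels of the members within a library differed widely. They are compared between genes as TPM, which account for transcript length and library total, and ordered by the median over the WT libraries. Ybx1, a cold-shock protein that packages mRNA, led with 1941 to 2671 TPM in WT and lay above every other member in each of the 6 libraries. Hnrnpa2b1, which binds a trafficking element in mRNA carried to dendrites and to oligodendrocyte processes, followed with 580.7 to 772.1 TPM. Hnrnpk (384.2 to 621.2) and Sfpq (366.4 to 460) came next, with ranges that overlapped each other, and Hnrnpk also overlapped Hnrnpa2b1. Caprin1 (278.3 to 358.9), Celf2 (214.3 to 306.1) and Elavl3 (125.9 to 297.8) formed a further overlapping run. Of the members without a test below, Nova1 stood highest with a WT median of 2.46 TPM. Cpeb1 was listed at 0 in all 6 libraries, and G3bp1, Pura and Purb had a WT median of 0.

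**Figure D1:**
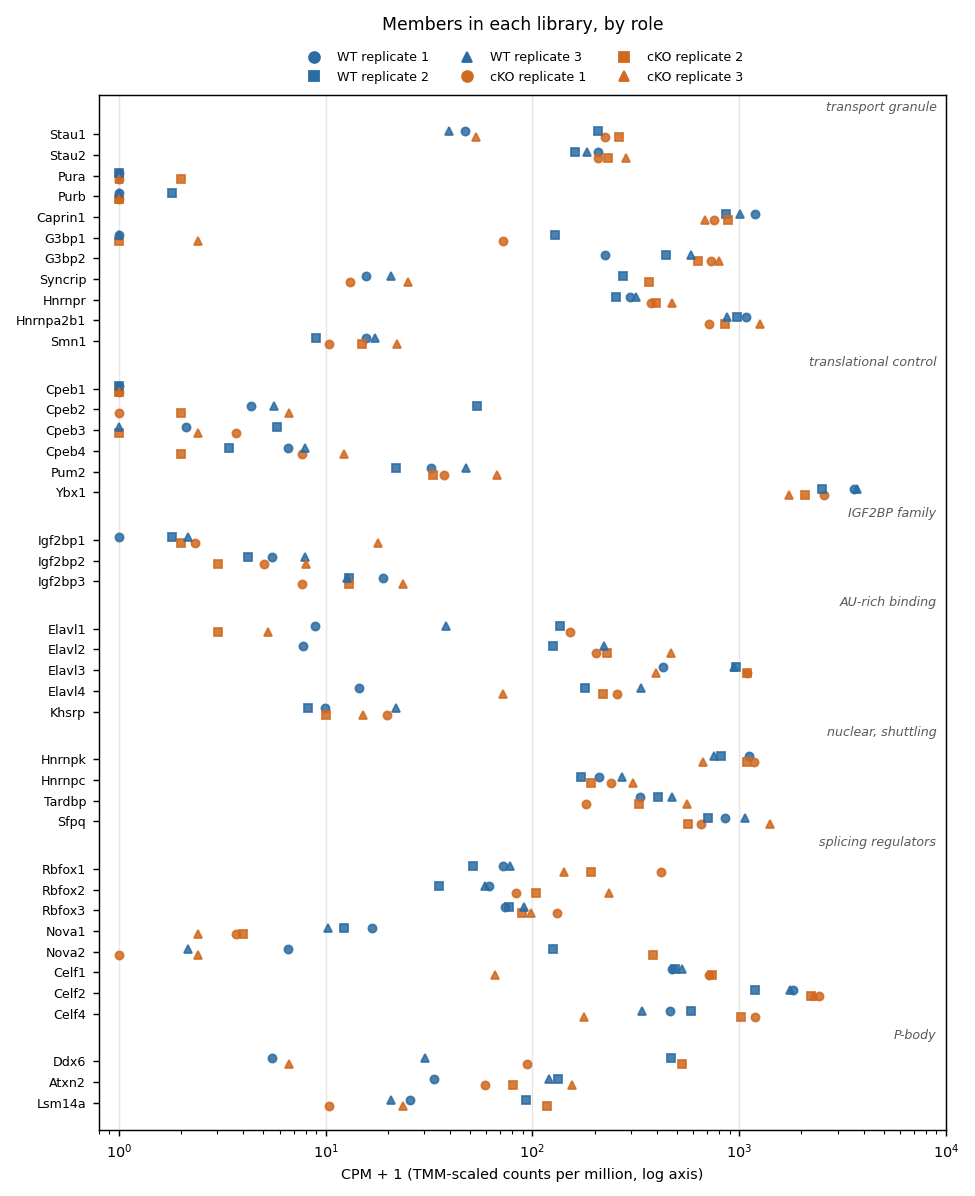
CPM + 1 (log axis) of each of the 40 members in each library, grouped by role, with WT in blue and cKO in orange and the replicate number given by the marker (circle 1, square 2, triangle 3). Orange markers lie to the right of all blue ones for Rbfox1, Rbfox2, Celf2, G3bp2 and Hnrnpr, and to the left for Nova1, which had 36 counts over the WT and 6 over the cKO libraries.

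Between the genotypes, no member passed the test. Of the 40 members 29 had enough counts to be tested, and 0 were called higher and 0 lower in cKO (edgeR quasi-likelihood test, Benjamini-Hochberg adjusted p below 0.05 over 5918 genes), while 0.49% of all tested genes were called higher and 0.422% lower. The lowest adjusted p of a member was 0.241, for Rbfox1. At an unadjusted p below 0.05, 3 members were higher (Rbfox1, Rbfox2 and Celf2) and 1 lower (Ybx1), beside 7.16% and 5.41% of all tested genes. For 5 members every cKO library lay above every WT library, and for 0 tested members below, beside 10.4% and 9.45% of all tested genes. DESeq2 called 1 member, Rbfox1, beside 7.34% of all genes it gave an adjusted p, and limma on log2(TPM + 1) called 0, beside 1.28%. The median log2 fold change of the tested members was 0.18, with 22 above and 7 below 0. That of all tested genes was 0.07, with 3188 above and 2730 below 0. With upper-quartile scaling these medians were −0.08 and −0.22, and 13 of the 29 lay above 0, so the sign of the members' median depended on the scaling while it stayed above that of all genes. A gene that passed the filter only through its higher group had to differ, so these counts describe the tested members and not all 40.

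**Figure D2:**
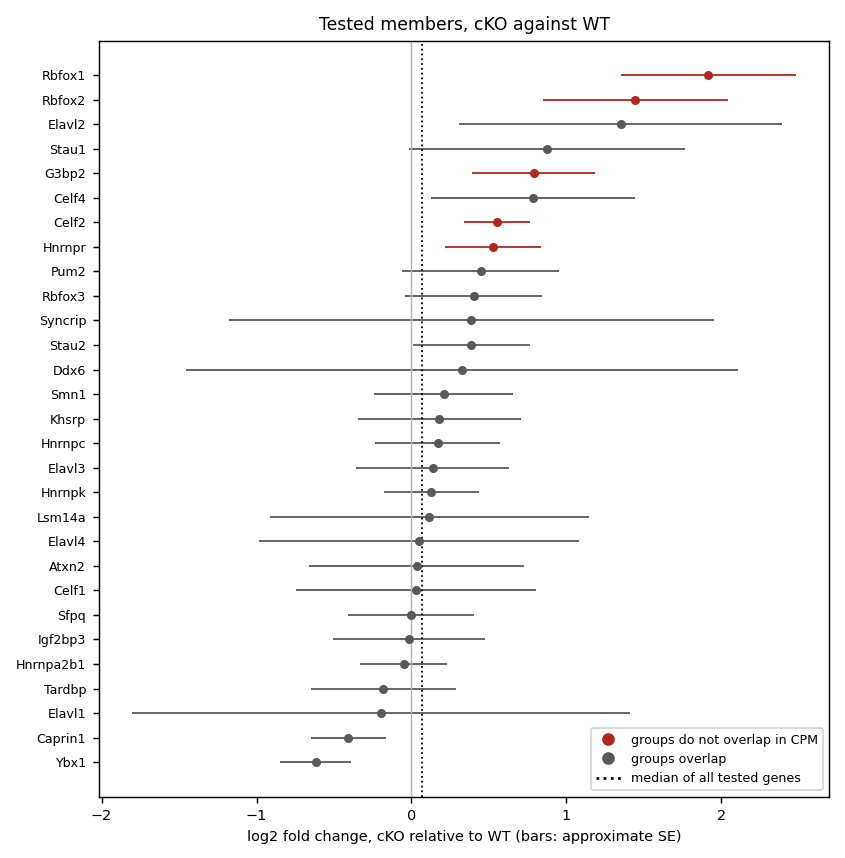
Log2 fold change of the 29 tested members, cKO relative to WT, with bars of 1 approximate standard error and a dotted line at 0.07, the median of all 5918 tested genes. Red points mark the 5 members whose groups did not overlap in CPM, and none of the 29 passed an adjusted p of 0.05.

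The splicing regulators held 3 of the 4 members with an unadjusted p below 0.05. These proteins bind short motifs in introns near neuronal exons, and cytoplasmic forms bind 3′ untranslated regions. Of the 8, 6 were tested. All 6 had a log2 fold change above 0, beside 3188 of all 5918 tested genes. With RLE or upper-quartile scaling 5 of 6 did. Their median was 0.67, and 0.30 with upper-quartile scaling, and the lowest value was 0.03, for Celf1. Nova1, untested, was lower in every cKO library than in any WT library. None of the 6 passed the test. The neuron marker list had 7050 to 8930 CPM in WT and 9830 to 14200 in cKO, summed over its 8 genes. Of these 8 genes 0 were called, and 2 had a log2 fold change below 0. The part of this list in the values of these regulators was not tested.

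Rbfox1 (chromosome 16, 5884793 to 7412480, GRCm38), a splicing regulator of neurons and muscle, had 70.8, 50.6 and 76.8 CPM in WT and 417, 191 and 141.5 in cKO. All 3 cKO libraries lay above all WT libraries, and they differed among themselves by a factor of 2.95. The means were 66.1 ± 13.7 and 249.8 ± 146.8 CPM (SD, n = 3). The fit gave Rbfox1 a log2 fold change of 1.92 (SE 0.57, adjusted p = 0.241 by edgeR), and 1.27 (without cKO replicate 1) to 2.22 over the alternatives, with adjusted p from 0.0109 to 0.61. The lowest of these p-values, from DESeq2, is the one under which Rbfox1 was called. Its paralog Rbfox2 (chromosome 15, 77078990 to 77308434), which is active in many tissues, had 60.65, 34.5 and 58.2 CPM in WT and 82.0, 103 and 233 in cKO. Those groups did not overlap either, and cKO replicate 3 had more than double the level of the other cKO libraries. For Rbfox2 the log2 fold change was 1.45 (SE 0.60, adjusted p = 0.387 by edgeR), and 0.86 without cKO replicate 3. Rbfox3, which encodes the neuronal nuclear antigen NeuN, had 73.0, 76.3 and 89.6 CPM in WT and 130.4, 88.1 and 97.6 in cKO. Here the groups overlapped, through WT replicate 3 and cKO replicate 2, and the log2 fold change was 0.40 (SE 0.44).

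Celf2 (chromosome 2, 6539694 to 7396341), the most abundant splicing regulator of the set, binds GU-rich sequence and acts both in splicing and on mRNA stability. It had 1817, 1190 and 1757 CPM in WT and 2446, 2222 and 2313 in cKO. The cKO libraries were close together and above all WT libraries, and the log2 fold change was 0.55 (SE 0.21, adjusted p = 0.355 by edgeR). Its range over the alternatives was 0.22 (upper-quartile scaling) to 0.65. Celf4, which binds the 3′ untranslated regions of many synaptic mRNAs, had 460.5, 582 and 340 CPM in WT and 1189, 1017 and 177 in cKO. Of its cKO libraries 2 were above all WT libraries and replicate 3 was below them all. Celf1 split in the same way, with 471, 488 and 530 CPM in WT and 713, 741 and 65.1 in cKO. Among the tested members Celf1 was the most even in WT, at a factor of 1.12 between the highest and the lowest library, while the factor in cKO was 11.4.

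Nova1 and Nova2 bind clustered short motifs and were first known as the antigens of a neurological autoimmune disease. Both fell outside the test. Nova1 (chromosome 12, 46697895 to 46819480) was counted 14, 14 and 8 times in WT, against 2, 3 and 1 times in cKO. It was the only member, tested or not, whose cKO libraries were all below WT. Pooled counts relative to library size were 4.91 times higher in WT, with an exact 95% counting interval of 2.05 to 14.2. Permuting the libraries (exact, two-sided) gave p = 0.1 for Nova1, the smallest it can give, and 1 after adjustment over the 10 untested members with counts. Nova2 was counted 5, 155 and 1 times in WT, against 0, 384 and 1 times in cKO. Nearly all of its counts came from the replicate 2 library of each genotype.

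Of the 11 transport granule proteins 8 were tested. Their median log2 fold change was 0.39 (0.10 with upper-quartile scaling), and none passed the test. G3bp2 and G3bp1 are paralogs that seed stress granules and bind the granule protein Caprin1. G3bp2 (chromosome 5, 92052145 to 92137725) had 225, 443 and 587 CPM in WT and 734, 635 and 799 in cKO. The groups did not overlap, with means of 418 ± 182 and 723 ± 82.9 CPM (SD, n = 3). The log2 fold change of G3bp2 was 0.79 (SE 0.40, adjusted p = 0.490 by edgeR), and 0.48 without WT replicate 1, its lowest library. G3bp1 was counted 0, 159 and 0 times in WT, against 53, 0 and 1 times in cKO. In each genotype 1 library, WT replicate 2 and cKO replicate 1, held nearly every count of G3bp1. Its deposited transcript had 2685 bases and the matched GENCODE transcript 6703, and the part of this difference in its counts was not tested.

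Hnrnpr (chromosome 4, 136310942 to 136345981), a partner of SMN that carries Actb mRNA in motor axons, had 294, 253 and 315.5 CPM in WT and 374, 397 and 472 in cKO. Both groups were narrow and did not overlap, with means of 288 ± 31.8 and 414.5 ± 51.5 CPM (SD, n = 3). The log2 fold change of Hnrnpr was 0.53 (SE 0.31, adjusted p = 0.565 by edgeR), and 0.25 with upper-quartile scaling. Its paralog Syncrip, also called hnRNP Q, had 14.6, 273 and 19.8 CPM in WT and 12.1, 366 and 24.1 in cKO. Here the replicate 2 library of each genotype stood far above the others, the genotypes overlapped, and the log2 fold change of 0.39 had an SE of 1.57. Caprin1, which holds mRNA in neuronal granules and represses its translation, had 1198, 866 and 1013 CPM in WT and 753, 882 and 683 in cKO. It was 1 of 7 tested members with a log2 fold change below 0, at −0.41 (SE 0.24, adjusted p = 0.566 by edgeR), and its groups overlapped through WT replicate 2 and cKO replicate 2.

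The Staufen paralogs bind double-stranded stretches of mRNA. Stau2, the neuron-enriched one, had 208, 161 and 183 CPM in WT and 207, 230.2 and 283 in cKO. WT replicate 1 and cKO replicate 1 were nearly equal, and the log2 fold change was 0.39 (SE 0.38). Stau1, the widely used one, had 46.0, 207 and 38.4 CPM in WT and 223, 261 and 52.3 in cKO. Each genotype had low and high libraries, and the log2 fold change of 0.88 had an SE of 0.89. Hnrnpa2b1, the most abundant granule member, had 1075, 975 and 876.5 CPM in WT and 711, 851 and 1263 in cKO. The cKO libraries of Hnrnpa2b1 lay on both sides of WT, and the log2 fold change was −0.05 (SE 0.28), changing sign under 4 of 16 alternatives. Smn1, the gene whose human counterpart is lost in spinal muscular atrophy, had 8.03 to 16.3 CPM in WT and 9.41 to 21.2 in cKO.

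Pura and Purb, single-strand binding proteins of kinesin-bound granules, had 1 count each over all 6 libraries. They were also the members with the fewest exons, 2 and 1, where every other member had at least 4. Few-exon genes were often missing in these libraries. Of 545 genes with 1 to 3 exons and a mean of at least 10 counts, 8.62% to 50.3% had 0 or 1 count in a given library. Of 6257 such genes with more exons, 1.2% to 5.53% did. Pura and Purb lay below that mean of 10 counts, so these rates do not cover them. Their low counts are not read as low mRNA, and the part of exon number in them was not tested. For Pura the deposited transcript had 1601 bases where the matched GENCODE transcript had 5957.

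Translational control was represented by Ybx1, Pum2 and the CPEB family. Ybx1 (chromosome 4, 119277327 to 119296265) had 3605, 2504 and 3719 CPM in WT and 2575, 2091 and 1737 in cKO. The groups overlapped, since cKO replicate 1 exceeded WT replicate 2. The means were 3276 ± 671 and 2134 ± 421 CPM (SD, n = 3), and the log2 fold change was −0.62 (SE 0.23, adjusted p = 0.336 by edgeR), between −0.98 (upper-quartile scaling) and −0.48 over the alternatives. Radial glia and progenitor markers, 6 genes, had 4930 to 7030 CPM in WT and 2420 to 2700 in cKO, with 1 of the 5 tested called lower. The summed proliferation markers, 5 genes, had 393 to 664 CPM in WT and 73.6 to 298 in cKO, with 1 of the 4 tested called lower. The part of either list in the Ybx1 value was not tested, and in bulk tissue fewer cells of a type and less RNA per cell cannot be told apart.

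Pum2, a Pumilio protein that represses mRNA through sites in the 3′ untranslated region, had 20.9 to 46.6 CPM in WT and 32.0 to 66.5 in cKO, and its log2 fold change was 0.45 (SE 0.51). The 4 CPEB genes, which control poly(A) tail length at synapses, were all below the filter. Cpeb1 had 0 counts in every library. Cpeb3 had 0 to 6 and Cpeb4 1 to 8 counts per library. Cpeb2 was counted 3, 66 and 4 times in WT, against 0, 1 and 4 times in cKO, so that WT replicate 2 alone held most of its reads.

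The IGF2BP family, zipcode binding proteins and m6A readers, was near the limit of detection. Igf2bp1, the founding zipcode binding protein of Actb mRNA, was counted 0, 1 and 1 times in WT, against 1, 1 and 12 times in cKO. Igf2bp2 was counted 4, 4 and 6 times in WT, against 3, 2 and 5 times in cKO. Igf2bp3, the only tested one, was counted 16, 15 and 10 times in WT, against 5, 12 and 16 times in cKO. Its groups overlapped, and the log2 fold change was −0.02 (SE 0.49). No difference of this family was detectable at this depth.

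AU-rich element binding proteins stabilise or destabilise short-lived mRNAs, and all 5 were tested. Their median log2 fold change was 0.14, and −0.20 with upper-quartile scaling. Elavl3 (HuC), the most abundant of them and specific to neurons, had 429, 961.5 and 949 CPM in WT and 1092, 1085 and 395 in cKO. In each genotype 1 library was low, and the log2 fold change was 0.14 (SE 0.49). Elavl2 (HuB) had 6.74, 124.5 and 220.0 CPM in WT and 203, 228 and 465 in cKO. WT replicate 1 was 32.6 times below WT replicate 3, the groups overlapped, and the log2 fold change of 1.35 had an SE of 1.04. Elavl4 (HuD), which accompanies Gap43 mRNA in axons, had 13.5, 179 and 334 CPM in WT and 255.5, 219 and 70.7 in cKO. WT replicate 1 was thus the lowest of all 6 libraries for Elavl2 and Elavl4, and the lowest of the WT libraries for Elavl3. Elavl1 (HuR), the widely expressed paralog, had 7.86, 134.9 and 37.2 CPM in WT and 152, 2.00 and 4.24 in cKO, and cKO replicate 2 was the lowest where WT replicate 2 was the highest of its genotype. Khsrp, which promotes decay, had 7.23 to 20.9 CPM in WT and 9.01 to 18.8 in cKO. Paralogs of the ELAVL, RBFOX and CELF families share stretches of sequence, and reads common to them are divided by RSEM's estimate.

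Among the 4 nuclear and shuttling proteins the median log2 fold change was 0.06, with 2 above and 2 below 0, and 0 of 4 above it with upper-quartile scaling. Hnrnpk had 1121, 812 and 754 CPM in WT and 1175, 1094 and 668 in cKO, which overlapped throughout. Hnrnpc, a nuclear hnRNP, had 170.3 to 271 CPM in WT and 190.2 to 305.5 in cKO. Tardbp, which encodes TDP-43, had 330.2 to 474 CPM in WT and 181.5 to 557 in cKO. For Sfpq, which is needed for axon survival, the WT libraries had 707 to 1064 CPM and lay inside the cKO range of 562.5 to 1409. Its log2 fold change was −0.003 (SE 0.40). That near-zero value comes with 3 cKO libraries that differ by more than double.

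P-body proteins silence and decap mRNA, and all 3 on the list were tested. Ddx6, a helicase of translational repression, had 4.49, 465 and 29.1 CPM in WT and 92.8, 527.5 and 5.66 in cKO. It was the least even member in WT, with a factor of 103.5 between the highest and the lowest library, and stood next to the untested Nova2 (95.3) in cKO with 93.2. Its log2 fold change of 0.33 (SE 1.78) ran from −1.75 to 3.63 when single libraries were left out. Lsm14a had 24.7, 92.4 and 19.8 CPM in WT and 9.41, 116 and 22.6 in cKO, again with replicate 2 highest in each genotype. Atxn2 had 32.6 to 132.5 CPM in WT and 57.8 to 154 in cKO.

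The members differed in how even they were within a genotype. Of the 29 tested members 9 (31%) stayed within a factor of 2 in both genotypes, beside 25.9% of all tested genes. A factor of at least 5 in at least 1 genotype was reached by 9 (31%), beside 30.6%, and in both genotypes by 3 (10.3%), beside 10.6%. Those 3 were Ddx6, Syncrip and Elavl1. The members as a set were thus about as even as other tested genes. Replicate 2 was the highest library in both genotypes for 4 members (13.8%), Stau1, Syncrip, Ddx6 and Lsm14a, beside 22.1% of all tested genes. These libraries had the greater depth and the shorter fragments, and the part of either in the values of these 4 members was not tested.

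**Figure D3:**
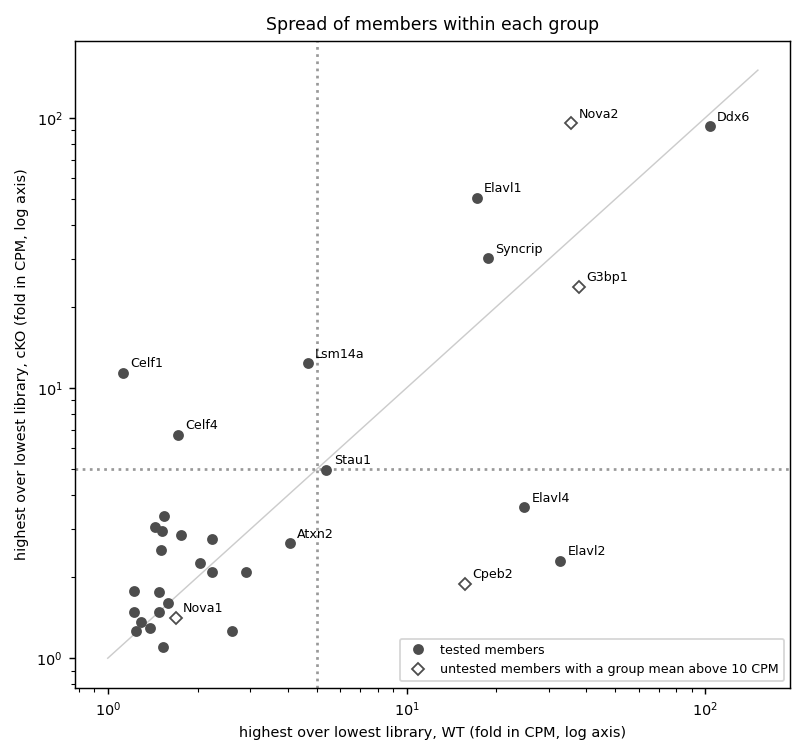
Highest over lowest library in CPM (lows raised to 3 counts) within WT (x axis) and within cKO (y axis), both on log axes, for the 29 tested members (dots) and the untested members with a group mean above 10 CPM (diamonds). Of the dots, Ddx6, at 103.5 and 93.2, and Syncrip and Elavl1 lie beyond a factor of 5 on both axes. Celf1, Celf4 and Lsm14a lie beyond it in cKO alone, and Elavl2, Elavl4 and Stau1 in WT alone. Of the diamonds, G3bp1 and Nova2 lie beyond it on both axes and Cpeb2 in WT alone.

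RSEM also divided each gene's reads among its transcripts, and these shares are given as a description, for transcripts picked after their values were seen. Of the members 20 had several transcripts and enough reads (a mean of at least 50 counts and at least 3 in each library). Their 68 transcripts with a share of at least 10% in any library were kept, and those of all genes likewise. A cKO share above all WT shares was seen for 4 of the 68 (5.88%) and one below for 3 (4.41%), beside 6.42% and 7.41% of 2320 transcripts of all genes. So the members' transcripts stood apart by genotype about as often as those of other genes. A transcript could reach the 10% through its higher group alone, so these counts describe the transcripts kept and not all. The 4587-base transcript of Rbfox2 took 0% in all 3 WT libraries and 19.3%, 71.0% and 61.7% in cKO, which was 8.54, 63.9 and 84.3 estimated counts. Rbfox2 as a whole had 61, 103 and 165 counts in cKO, and the part of this transcript in its genotype difference was not tested. The transcript is the shortest of the 9 listed for Rbfox2. The 8744-base transcript of Celf2 took 0%, 0% and 3.46% in WT and 10.6%, 20.2% and 11.6% in cKO. The 4373-base transcript of G3bp2 took 0%, 0% and 2.07% in WT and 7.12%, 14.6% and 12.5% in cKO. For Elavl4 the 4094-base transcript took 0%, 25.0% and 7.79% in WT and 30.4%, 35.4% and 56.7% in cKO.

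In the other direction the 6156-base transcript of Caprin1, the longest of its 5, took 37.7%, 42.0% and 31.0% in WT and 18.8%, 24.0% and 3.7% in cKO. A 3863-base transcript of Celf4 took 28.9%, 15.8% and 27.1% in WT and 15.4%, 7.57% and 11.9% in cKO. The lowest WT and the highest cKO share of that transcript nearly met. The 3108-base transcript of Rbfox3 took 11.7%, 6.81% and 14.8% in WT and 2.87%, 0% and 6.49% in cKO and had few reads, at most 11.9 estimated counts. For Celf1 the 4685-base transcript took 73.6%, 23.8% and 56.9% in WT and 0%, 0% and 100% in cKO, and the library with 100% is the one in which Celf1 as a whole was low.

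Some transcripts set the replicate 2 libraries apart from the others. For 11 of the 68 (16.2%), beside 11.5% of all 2320, both replicate 2 shares lay on the same side of the other 4, and Tardbp, Syncrip and Hnrnpk each account for 2 of the 11. Whether reads of the shorter fragments in these libraries resolve the transcripts as in the others could not be checked, so the values are RSEM's assignments and not measured forms. Tardbp is the clearest case. Its 7363-base transcript took 99.5% and 82.5% in WT replicates 1 and 3 and 97% and 100% in cKO replicates 1 and 3, but 0% and 7.67% in the replicate 2 libraries. Its 7454-base transcript took 94.2% and 86.2% there and at most 15.4% elsewhere. For Syncrip both the level and the assigned transcript differed. Its 2782-base transcript took 87.1% to 100% outside replicate 2 and 27.8% and 13.2% in it, while the 6933-base transcript took 64.8% and 79.5% in replicate 2 and at most 8.57% elsewhere. In counts, the 2782-base form had 7.37 to 42.7 in every library and the 6933-base form 267 and 317 in replicate 2 against at most 3.23 elsewhere. The higher counts of Syncrip in the replicate 2 libraries were thus mostly assigned to its long form.

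**Figure D4:**
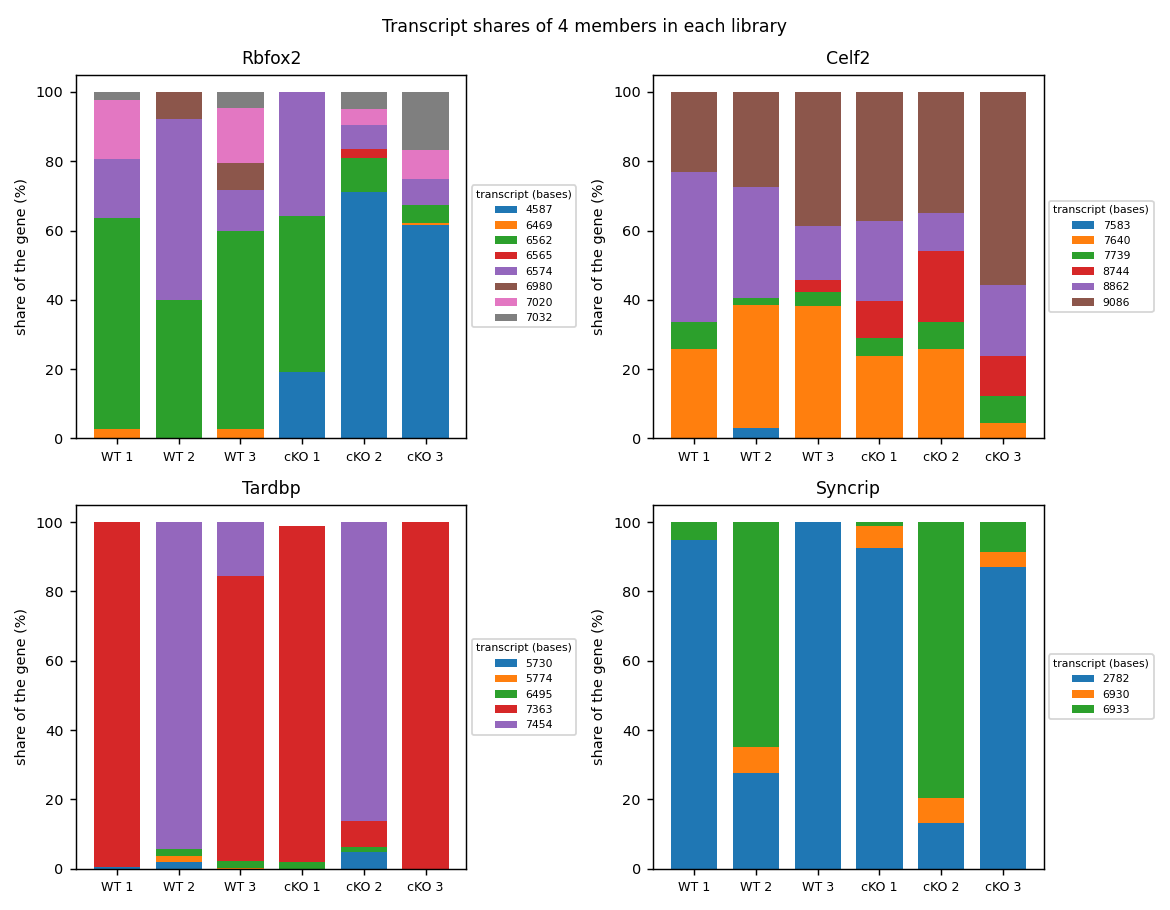
Share of each gene's abundance assigned by RSEM to each of its transcripts (stacked bars, percent) in the 6 libraries, for Rbfox2, Celf2, Tardbp and Syncrip, with transcripts named by length in bases. The 4587-base transcript of Rbfox2 appears in the cKO libraries alone, and the largest share of Tardbp and of Syncrip goes to another transcript in the replicate 2 library of each genotype than in the others.

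Other proteins of the same pathways, 124 genes on 6 lists, gave 94 tested genes. None was called. At an unadjusted p below 0.05, 8 were higher and 1 lower, beside 7.16% and 5.41% of all tested genes, and their median log2 fold change was 0.17. By list the medians were −0.003 for the FMRP family and its CYFIP partners (5 tested), 0.35 for other stress granule and P-body proteins (19) and 0.03 for other hnRNP and FET proteins (28). They were 0.30 for other cell-type-restricted RNA-binding proteins (13), 0.14 for the SMN complex and kinesin-bound partners (7) and 0.26 for mRNAs known to be carried to axons or dendrites (22). With upper-quartile scaling 1 of these 6 medians, that of other stress granule and P-body proteins, lay above 0, at 0.10. Tnrc6c, a GW182 protein that works with Argonaute in microRNA silencing, had the smallest p. It had 7.86, 9.64 and 18.6 CPM in WT and 76.6, 49.0 and 100.4 in cKO, which gave a log2 fold change of 2.64 (SE 0.55, adjusted p = 0.135 by edgeR). Tubb3, a neuronal tubulin and also one of the neuron markers, was next with 2062, 1827 and 2198 CPM in WT and 4281, 3963 and 2847 in cKO. The log2 fold change of Tubb3 was 0.87 (SE 0.20, adjusted p = 0.162 by edgeR). Fmr1, named after its values were seen because FMRP is the best known repressor in these granules, had 37.1, 17.7 and 23.3 CPM in WT and 88.7, 112 and 240.5 in cKO. Every cKO library exceeded every WT library for these 3 genes, and none passed the test, as with Fmr1 at 2.50 on the log2 scale (SE 0.62, adjusted p = 0.190 by edgeR). Sex-linked transcripts split by genotype in these libraries, and the part of that split in the Fmr1 value was not tested.

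The label names corpus callosal axon as the tissue, and the libraries also held transcripts of other cells. In WT the 8 markers of myelinating oligodendrocytes summed to 2540 to 4120 CPM and the 6 of astrocytes to 3710 to 4740. In cKO the oligodendrocyte markers summed to 2 to 10.8 CPM, with all 6 tested called lower and Mog, Mag, Enpp6 and Myrf at 0 in all 3 libraries. The astrocyte markers summed to 157 to 1410 CPM in cKO, with 1 of the 5 tested called lower. Oligodendrocyte precursor markers (5 genes) had 3800 to 4530 CPM in WT and 546 to 1310 in cKO, with 1 of the 3 tested called lower. Microglial (5 genes) and endothelial (4 genes) markers had 58.4 to 439 and 72.2 to 117 CPM in WT and 36.3 to 210 and 25 to 32.3 in cKO. None of the 3 tested on either list was called, and P2ry12 and Cldn5 were at 0 in cKO. Every CPM is a share of its library, and the part of this difference in glial transcripts in the members' values was not tested.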

How the data were processed

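The authors deposited 1 table of transcripts per library, made with STAR 2.7.10b and RSEM 1.3.3 on build mm10 per the submitters' processing notes. Its annotation, its strand setting and any filter were not stated in the sources used here. Per the labels, corpus callosum was dissected by hand from 60 µm frozen sections, and polyadenylated RNA was made into libraries with an unstranded kit, so reads of overlapping genes on opposite strands cannot be told apart. The labels do not say that libraries came from separate animals, so the p-values stand for the spread among these libraries, which may be technical. Per the file headers, the expected counts are RSEM's estimated fragments per transcript. Deposited TPM, per the file headers, account for the length of each transcript and the total of the library. The deposited percent of each gene's abundance per transcript (IsoPct, per the file headers) is also RSEM's estimate. The deposited FPKM were not used, and effective lengths served only to give the mean fragment length.

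Expected counts were summed per gene, rounded to whole numbers and compared between cKO and WT by the quasi-likelihood test of edgeR 4.0.16 in R 4.3.3. Scaling was TMM, filterByExpr (minimum count 10) left 5918 genes, and all 6 libraries entered without a covariate. The SE was worked back from the fold change and F, so it restates the p-value. CPM uses the same scaling. The members, role groups, related lists and markers were chosen with earlier results of these data known. Values in every library are given for members with a call, an unadjusted p below 0.05 or groups that do not overlap, for the member of each role with the highest mean TPM, and for their paralogs. By the same rule Mettl14 and the 2 related genes with the smallest p are named. Values of Stau1, Stau2, Caprin1, Lsm14a and Cpeb2 in every library, the transcripts described, Fmr1, Xist, Eif2s3y and the markers at 0 were added after their values were seen. The alternatives used DESeq2 1.42.0, RLE or upper-quartile scaling, 2 more filters, and limma 3.58.1 on log2(TPM + 1) and log2(TPM + 0.1). They also used a block, a batch term, only the members with more than 3 exons, and leaving out libraries. Gene positions are RefSeq's on GRCm38, the assembly of mm10. Every pair of libraries differed by more than counting noise.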

Additional observations from a re-analysis of the deposited data

How the results depend on the processing

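In each of 17 alternatives 0 members were called lower. Likewise 0 were called higher except with DESeq2, which called 1, Rbfox1 (log2 fold change 1.91, adjusted p = 0.0109 by DESeq2). It called 429 genes in all, against 54 with edgeR, and the cause was not tested. Of the 17, the setting that kept only members with more than 3 exons dropped no tested member, so it had to repeat the reported fit. At an unadjusted p below 0.05 the members numbered 4 in the reported fit, 7 with DESeq2 and 1 with upper-quartile scaling. The members' median was −0.077 with upper-quartile scaling and 0.142 to 0.434 when single libraries were left out (0.292 or more without WT replicate 2 or 3 or cKO replicate 1 or 3). Whether the replicate numbers pair the libraries was not settled. The deviations of same-numbered libraries correlated with r of 0.0638, 0.462 and 0.162. WT replicate 2 correlated best with cKO replicate 2, whereas WT replicate 1 correlated best with cKO replicate 3 (r = 0.2). The fit with a replicate block gave 0 and 0 calls and a median of 0.209. Rbfox1, Rbfox2, Celf2, G3bp2, Hnrnpr and Ybx1 kept their direction in all 16 alternatives run on single genes. Except for Ybx1, their groups did not overlap, so leaving out libraries could scarcely reverse them. Ybx1 was named for its unadjusted p below 0.05, so these settings are no separate support for the directions. Among the other named members, upper-quartile scaling gave −0.196 for Elavl3 and −0.257 for Hnrnpk. Leaving out both replicate 2 libraries gave −0.015 for Hnrnpk and 0.021 for Hnrnpa2b1. Leaving out 1 library at a time gave −1.747 to 3.633 for Ddx6, −0.158 to 0.498 for Elavl3, −0.309 to 0.087 for Hnrnpa2b1, −0.086 to 0.353 for Hnrnpk and −0.536 to 0.280 for Igf2bp3; the cause was not tested. Cpeb1, Cpeb3, Cpeb4, Igf2bp1, Igf2bp2, Pura and Purb had few counts, and at this depth a difference of a few counts was not detectable.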
